A study of Mus musculus with 12 samples.

Results

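The genes described here are 10 mouse genes that mark neurons of the deep cortical layers, chosen by name: Tbr1, Bcl11b, Fezf2, Foxp2, Sox5, Tle4, Zfpm2, Ldb2, Hs3st4 and Crym. All 10 were found among the 48709 gene identifiers of the count tables, and all 10 were among the 16511 genes that passed the filter on low counts. Expression was measured by RNA sequencing of whole embryonic cortex from C57BL/6J mice at E15.5, in 4 control libraries, 4 libraries of a conditional knockout of BAF155 (BAF155 cKO) and 4 libraries labelled as a conditional knockout of Pax6 (Pax6 cKO). BAF155, encoded by Smarcc1, belongs to the BAF complex, which repositions nucleosomes, and Pax6 is a transcription factor of cortical progenitors. The study compared each knockout with the controls. The sources used here give neither the Cre line nor the floxed alleles, nor the genotype of the controls. The labels do not say whether the 4 libraries of a group come from separate embryos, so the p-values rest on a spread between libraries that may be technical.

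The neurons of the deep layers are the first projection neurons born in the cortex. Layer 6 holds mostly corticothalamic neurons, which send axons to the thalamus, and layer 5 holds the subcerebral neurons, which project to brainstem and spinal cord. Their identities are set by a network of transcription factors in which Tbr1 and Sox5 favour the layer 6 fate and restrain Fezf2, while Fezf2, acting through Bcl11b (also called CTIP2), favours the layer 5 subcerebral fate.

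Libraries held between 15155249 and 32047949 counted reads. Smarcc1 was lower in the BAF155 cKO, at 127 ± 10.8 CPM (read counts scaled to a common library size; SD, n = 4) against 303 ± 68.7 in controls. Pax6 counts go against the label of the other knockout: they were 389 ± 8.74 CPM in the libraries labelled Pax6 cKO and 110 ± 19.1 in controls. Counts over the whole gene do not show whether a deleted exon is missing, so these counts check neither deletion, and every direction given for the libraries labelled Pax6 cKO rests on that label. By Xist and Y-linked genes, the 4 BAF155 cKO libraries were female and the 4 labelled Pax6 cKO were male. Controls 1 and 2 were male and controls 3 and 4 female. The female controls averaged 360 CPM of Smarcc1 and the male controls 247 CPM (edgeR adjusted p = 0.052). Between the 2 knockouts, Smarcc1 passed the edgeR test with all libraries. It did not pass in 6 fits that left out 1 library (edgeR adjusted p = 0.0536 to 0.0852). Control files name sequencing lane 8, and knockout files name lane 1 or 3, so the lane cannot be told apart from the comparison with controls.

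In control cortex, levels were compared between genes per length of exon (RPKM, CPM divided by exon kilobases). This length is the union of annotated exons, 16346 bases for Foxp2 and 3189 for Hs3st4, so the order depends on the annotation. Tbr1 came first at 66.4 ± 19.97 RPKM (SD, n = 4). Fezf2 followed at 45.6 ± 13.96 and Bcl11b at 39.3 ± 11.2. These 3 overlapped with their neighbours in the order, and each spread widely among the controls. Tle4 at 28.0 ± 2.51 RPKM and Ldb2 at 22.6 ± 2.18 RPKM were far more even, and the lowest Tle4 value (25.2) lay just above the highest Ldb2 value (25.0). Sox5 (19.3 ± 8.02), Hs3st4 (19.2 ± 2.33) and Crym (13.3 ± 5.64) overlapped in RPKM. Zfpm2 at 4.98 ± 1.40 RPKM and Foxp2 at 3.52 ± 1.05 RPKM came last and overlapped each other. Both lay below every other member, whose lowest control value was 9.82 RPKM. The order of levels was different at the top in the libraries labelled Pax6 cKO: Fezf2 came first at 34.5 ± 1.76 RPKM, above every value of Tbr1 (27.7 ± 0.291), and Crym, at 27.4 ± 3.98 RPKM, overlapped Tbr1.

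**Figure D1:**
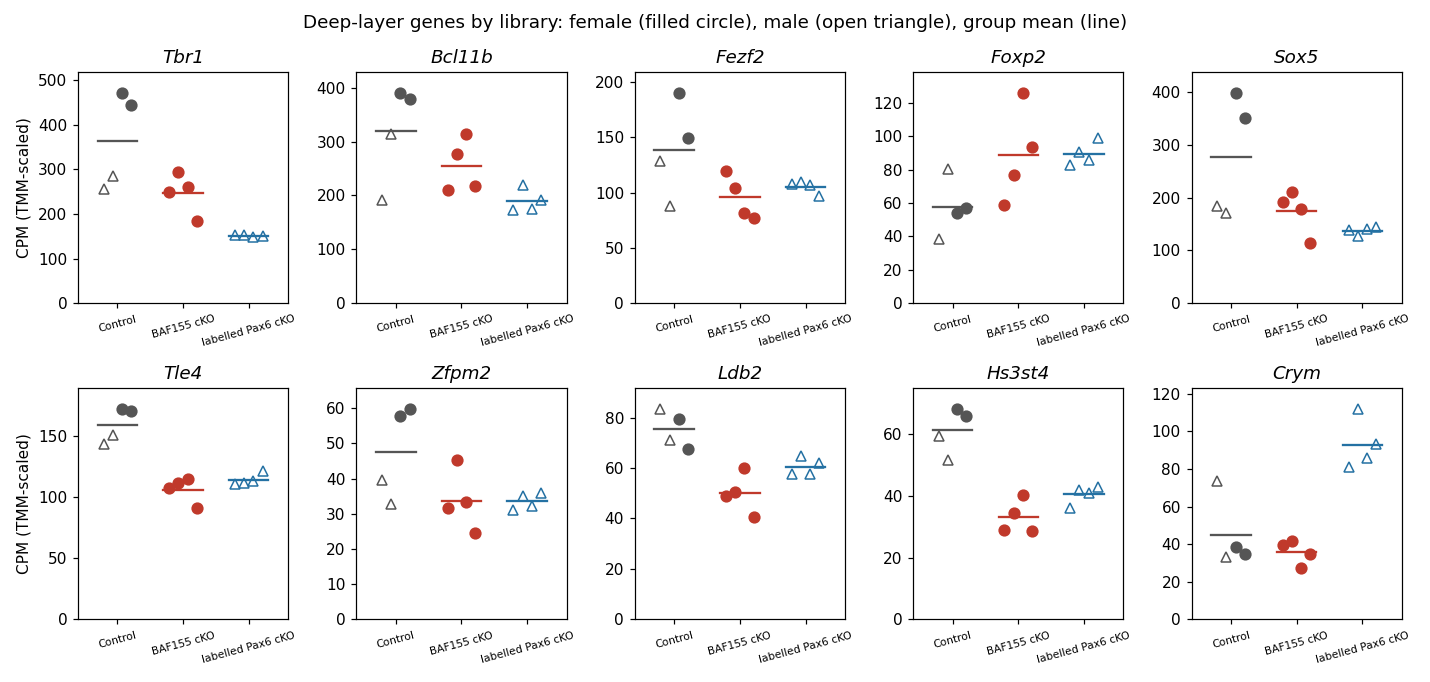
Level of each of the 10 deep-layer genes (y axis, CPM scaled by the trimmed mean of M-values, from 0) in each library (points; filled circles female, open triangles male) by group (x axis), with the mean of 4 libraries as a line. For Tbr1, Bcl11b, Fezf2, Sox5, Tle4, Zfpm2 and Hs3st4 the 2 female controls stand above every other library. For Crym the 4 libraries labelled Pax6 cKO stand above all others.

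Against all 4 controls, 4 of the 10 genes fell in the BAF155 cKO and none rose: Hs3st4, Ldb2, Tle4 and Tbr1 (edgeR quasi-likelihood test, Benjamini-Hochberg adjusted p under 0.05). Across all tested genes, 13.6% were called in this comparison, 7.56% as lower and 6.04% as higher. In 3 of the 10, all BAF155 cKO libraries lay below all controls, as they did for 7.95% of tested genes. The median log2 fold change was -0.55 over the 10 genes and 0.01 over all tested genes. In the libraries labelled Pax6 cKO, 7 of the 10 fell (Tbr1, Sox5, Bcl11b, Hs3st4, Zfpm2, Tle4 and Ldb2), and Foxp2 and Crym rose. Here the background was much higher, with 35.5% of all tested genes called, 18.9% lower and 16.6% higher. All 4 libraries lay below all controls for 5 of the 10 genes, against 18.3% of tested genes, and above them for 2, against 17.2%. The median log2 fold change was -0.49 over the 10 genes and 0.02 over all tested genes. Both comparisons use the same 4 controls. In bulk cortex, fewer deep-layer neurons and less RNA of these genes per neuron cannot be told apart.

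Tbr1 (chromosome 2, 61802930 to 61814114 in GENCODE M21 on GRCm38), a T-box transcription factor of layer 6 and subplate neurons, had the highest mean RPKM of the members in controls. Controls 1 to 4 held 255, 286, 472 and 444 CPM, the BAF155 cKO libraries 249, 295, 260 and 185 CPM, and the libraries labelled Pax6 cKO 153, 153, 149.5 and 152 CPM. Every library labelled Pax6 cKO lay below every control and every BAF155 cKO library, whereas the BAF155 cKO overlapped the 2 male controls. Under the Pax6 cKO label, Tbr1 fell by 1.26 on the log2 scale (SE 0.18, edgeR adjusted p = 0.00017). It also fell in the BAF155 cKO, by 0.56 (SE 0.18, edgeR adjusted p = 0.048), a call that was lost when BAF155 cKO library 1, 3 or 4 or control 3 or 4 was left out (log2 fold change -0.59 to -0.41, edgeR adjusted p = 0.0658 to 0.166).

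Sox5 (chromosome 6, 143828425 to 144781977), a Sox transcription factor that times the birth and migration of the deep-layer subtypes, had the widest relative spread among controls after Crym. Its controls held 185, 172, 399 and 351 CPM. The BAF155 cKO libraries held 192, 211, 178 and 115 CPM and the libraries labelled Pax6 cKO 139, 127, 139.8 and 144 CPM. As with Tbr1, the female controls stood far above the rest, the BAF155 cKO overlapped the male controls, and the libraries labelled Pax6 cKO lay below all controls. Sox5 fell by 1.01 on the log2 scale in the latter (SE 0.25, edgeR adjusted p = 0.0073). Its value in the BAF155 cKO was -0.67 (95% interval -1.20 to -0.14, edgeR adjusted p = 0.083), which passed the test without control 1 (adjusted p = 0.0347) or control 2 (adjusted p = 0.0271). The antisense gene Sox5os1 shares 9.25% of the Sox5 exon bases but held 3 reads over all libraries against 55259 for Sox5.

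Fezf2 (chromosome 14, 12342094 to 12348189), a zinc finger factor that specifies subcerebral neurons, passed the test in neither knockout against all 4 controls. Controls held 128, 88.0, 190.1 and 149 CPM, the BAF155 cKO libraries 119.6, 104, 81.9 and 77.1 CPM, and the libraries labelled Pax6 cKO 107, 109, 107 and 97.2 CPM. Control 2 was as low as the knockouts. Its log2 fold change was -0.54 (95% interval -0.93 to -0.15, edgeR adjusted p = 0.063) in the BAF155 cKO and -0.40 (-0.79 to -0.01, adjusted p = 0.098) under the Pax6 cKO label. Without control 2 both passed (edgeR adjusted p = 0.0086 and 0.0092), and the BAF155 cKO value also passed without its library 1 (adjusted p = 0.0458).

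Bcl11b (chromosome 12, 107910403 to 108003602), a zinc finger factor needed for corticospinal axons and for striatal neurons, was at 192, 314, 390.2 and 379 CPM in controls 1 to 4. The BAF155 cKO libraries held 210.5, 276, 314 and 218 CPM and the libraries labelled Pax6 cKO 172.5, 219, 174.6 and 192 CPM. Control 1 lay below all BAF155 cKO libraries and within the range of those labelled Pax6 cKO. Bcl11b fell by 0.75 on the log2 scale in the libraries labelled Pax6 cKO (SE 0.19, edgeR adjusted p = 0.0071). The BAF155 cKO value was -0.32 (95% interval -0.72 to 0.07, edgeR adjusted p = 0.23), and it passed without control 1 at -0.51 (adjusted p = 0.0226).

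Foxp2 (chromosome 6, 14901349 to 15441977), a forkhead factor of layer 6 neurons, striatum and thalamus, moved against the other transcription factors. Controls held 38.6, 80.4, 54.1 and 56.8 CPM, the BAF155 cKO libraries 59.1, 76.5, 126 and 93.3 CPM, and the libraries labelled Pax6 cKO 82.8, 90.6, 85.9 and 98.8 CPM. All 4 of the latter lay above all controls, and Foxp2 rose by 0.64 on the log2 scale (SE 0.21, edgeR adjusted p = 0.031). This call was lost without control 1, 3 or 4 or without library 2, 3 or 4 labelled Pax6 cKO (edgeR adjusted p = 0.0534 to 0.0932). For the BAF155 cKO the value was 0.62 (95% interval 0.17 to 1.08, edgeR adjusted p = 0.065), and it passed without BAF155 cKO library 1 (adjusted p = 0.0259) or control 2 (adjusted p = 0.0207).

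Because Foxp2 and Bcl11b are also striatal genes, the 13 striatal projection neuron markers were summed in each library. The sums were 128 to 344 CPM in controls, 141 to 330 in the BAF155 cKO and 141 to 191 under the Pax6 cKO label. Control 2, with 344 CPM of striatal markers, held the most Foxp2 of the controls, but less Bcl11b than controls 3 and 4. BAF155 cKO library 3, with 330 CPM, held the most Foxp2 and Bcl11b of its group. Of the 13 markers, 1 was called higher in the BAF155 cKO (Penk, a neuropeptide precursor) and 1 lower (Ppp1r1b), and in the libraries labelled Pax6 cKO 1 was called lower (Ppp1r1b). Foxp2 is also a thalamic gene, and 6 thalamic markers summed to 55.6 to 89.2 CPM in controls, 90.4 to 128 in the BAF155 cKO and 74.1 to 79.9 under the Pax6 cKO label. In the BAF155 cKO, 2 of the 6 were called higher and 1 lower, and under the Pax6 cKO label 1 higher and 2 lower. Beside these counts, 6.04% and 16.6% of all tested genes were called higher and 7.56% and 18.9% lower. The part of striatal or thalamic RNA in the Foxp2 and Bcl11b values was not tested. A check added after seeing the data left out control 2 and BAF155 cKO library 3. Of the 10 genes, 7 were then called in the BAF155 cKO, 6 lower and Foxp2 higher at 0.61 (edgeR adjusted p = 0.039). Under the Pax6 cKO label all 10 were called, 8 lower and 2 higher. The share of all tested genes called in this check is not given here. Without control 2 alone, 8 of the 10 were called in the BAF155 cKO, 7 lower and 1 higher. Over all fits that left out 1 library, 1001 to 4073 of all genes were called in this comparison. With every library it was 2246. Control 2 also held the least Fezf2, Sox5, Zfpm2 and Hs3st4 of the controls. The part of striatal RNA in the change of these counts was not tested.

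**Figure D2:**
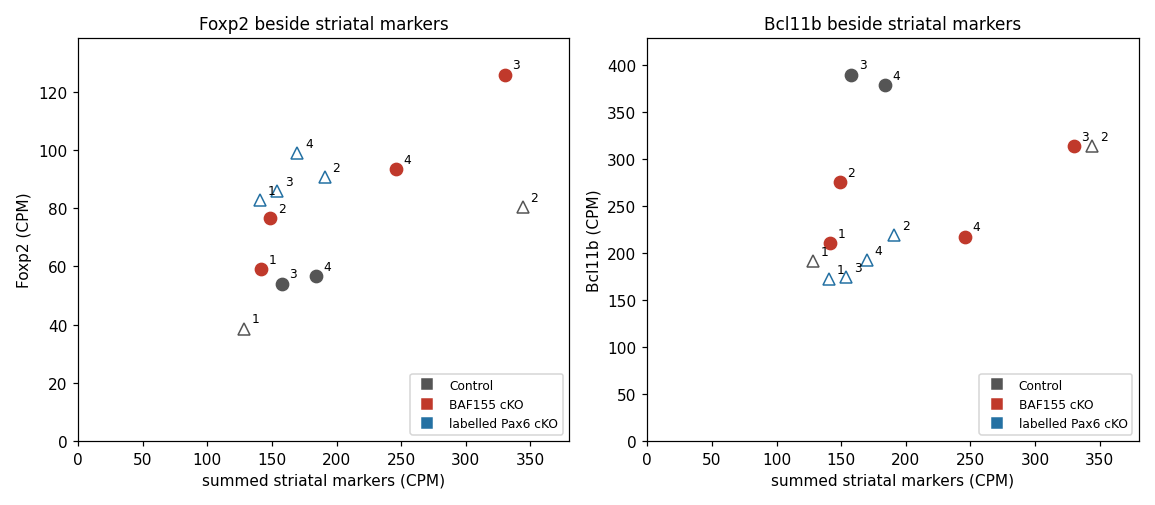
Foxp2 (left) and Bcl11b (right) in CPM on the y axis against the sum of 13 striatal marker genes in CPM on the x axis, 1 point per library, numbered by replicate (filled circles female, open triangles male, coloured by group). Control 2 and BAF155 cKO library 3 stand apart at 344 and 330 CPM of striatal markers, and the 4 libraries labelled Pax6 cKO hold 82.8 to 98.8 CPM of Foxp2, above all controls, at 141 to 191 CPM of striatal markers.

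Tle4 (chromosome 19, 14448150 to 14598051), a Groucho-type corepressor of corticothalamic neurons, and Hs3st4 (chromosome 7, 123982869 to 124398989), a heparan sulfate 3-O-sulfotransferase of layer 6, were below all controls in every knockout library. For these genes, the sequence before the annotated start is shown beside that of Sox5, a member whose levels spread widely among controls. RefSeq sequence (GRCm38.p6) for 6 of the 10 members was at hand. The 250 bases before the start hold no annotated exon for these 3, and CG dinucleotides, the sites of DNA methylation, are in capitals.
Tle4, chr19:14598184-14598433, minus strand: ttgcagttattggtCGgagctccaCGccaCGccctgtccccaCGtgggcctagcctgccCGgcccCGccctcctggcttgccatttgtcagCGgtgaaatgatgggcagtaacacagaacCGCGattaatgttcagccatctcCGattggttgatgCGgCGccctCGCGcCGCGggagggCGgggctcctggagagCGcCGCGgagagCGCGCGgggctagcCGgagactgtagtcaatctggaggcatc
Hs3st4, chr7:123982578-123982827, plus strand: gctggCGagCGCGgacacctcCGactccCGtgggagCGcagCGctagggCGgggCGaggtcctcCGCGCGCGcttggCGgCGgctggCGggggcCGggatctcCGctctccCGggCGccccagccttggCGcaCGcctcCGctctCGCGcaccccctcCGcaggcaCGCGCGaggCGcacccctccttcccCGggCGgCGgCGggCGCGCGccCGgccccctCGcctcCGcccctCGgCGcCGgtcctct
Sox5, chr6:143947107-143947356, minus strand: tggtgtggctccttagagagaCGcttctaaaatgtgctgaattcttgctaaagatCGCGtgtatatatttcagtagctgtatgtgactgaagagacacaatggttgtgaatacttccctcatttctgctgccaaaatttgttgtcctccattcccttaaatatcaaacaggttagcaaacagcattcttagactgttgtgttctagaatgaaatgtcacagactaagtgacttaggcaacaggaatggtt
The Hs3st4 window held 43 CG dinucleotides and 82.0% G or C. This was more CG than in 99.3% of all 32851 RefSeq windows of 250 bases, which may hold exon bases. The Tle4 window shown held 24 CG at 65.2% G or C, more than 88.0% of windows. Sox5, at a start inside the gene, held 3 CG at 39.6% G or C, more than 29.0%. A second Tle4 start had 154 exon-free bases before it, with 22 CG and 73.4% G or C. Fezf2, whose levels also spread widely among controls, had 156 such bases with 9 CG. The medians over all windows of 250 bases were 6 CG and 52.4% G or C, and counts in the shorter stretches were not adjusted for length. The CG search reads the same on both strands, and these counts describe the sequence only.

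Controls 1 to 4 held 144, 151, 172 and 171 CPM of Tle4, the BAF155 cKO libraries 107, 112, 115 and 91.0 CPM, and the libraries labelled Pax6 cKO 111, 112, 113 and 122 CPM. Neither knockout overlapped the controls. Tle4 fell by 0.58 on the log2 scale in the BAF155 cKO (SE 0.09, edgeR adjusted p = 0.00053) and by 0.48 under the Pax6 cKO label (SE 0.09, adjusted p = 0.0013). For Hs3st4, controls held 59.5, 51.5, 68.1 and 65.9 CPM, the BAF155 cKO libraries 28.9, 34.5, 40.3 and 28.7 CPM, and the libraries labelled Pax6 cKO 36.1, 41.8, 41.1 and 42.97 CPM. All 8 knockout libraries again lay below all 4 controls. Hs3st4 fell by 0.89 in the BAF155 cKO (SE 0.12, edgeR adjusted p = 0.00016), to 0.54 of the control level, and by 0.60 under the Pax6 cKO label (SE 0.12, adjusted p = 0.0017). Both genes passed in each of the 8 fits per comparison that left out 1 library. Gm27040, on the opposite strand, shares 4.08% of the Hs3st4 exon bases and held 114 reads over all libraries against 12853 for Hs3st4.

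Ldb2 (chromosome 5, 44472132 to 44799680), which encodes a cofactor of LIM-homeodomain proteins and is expressed in layer 5, was at 83.3, 71.3, 79.4 and 67.5 CPM in controls. The BAF155 cKO libraries held 48.8, 50.5, 60.2 and 40.6 CPM, and the libraries labelled Pax6 cKO 57.4, 64.6, 57.5 and 62.2 CPM. Neither group overlapped the controls. Ldb2 fell by 0.59 on the log2 scale in the BAF155 cKO (SE 0.11, edgeR adjusted p = 0.0022) and by 0.32 under the Pax6 cKO label (SE 0.11, adjusted p = 0.029). The second call was lost without control 3 or without library 1, 3 or 4 labelled Pax6 cKO (edgeR adjusted p = 0.0513 to 0.0815). Ldb2 is also expressed in blood vessels. Their 7 marker genes summed to 139 to 170 CPM in controls and 111 to 179 in the BAF155 cKO, where none was called. In the libraries labelled Pax6 cKO 2 were called higher, as were 16.6% of all tested genes.

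Zfpm2 (chromosome 15, 40655035 to 41104592), a GATA cofactor of corticothalamic neurons also called FOG2, was one of the members of lowest level. Controls held 39.6, 32.8, 57.8 and 59.7 CPM, the BAF155 cKO libraries 31.6, 45.2, 33.3 and 24.6 CPM, and the libraries labelled Pax6 cKO 31.1, 35.02, 32.2 and 36.0 CPM. The female controls were the highest libraries, and both knockouts overlapped the male controls. Zfpm2 fell by 0.50 on the log2 scale in the libraries labelled Pax6 cKO (SE 0.19, edgeR adjusted p = 0.049), a call lost without control 3 or 4 or any 1 of the 4 libraries labelled Pax6 cKO (adjusted p = 0.071 to 0.162). With the BAF155 cKO the value was -0.49 (95% interval -0.89 to -0.09, edgeR adjusted p = 0.089), and it passed without BAF155 cKO library 2 (adjusted p = 0.018) or control 2 (adjusted p = 0.0328).

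Crym (chromosome 7, 120186380 to 120202111), which encodes mu-crystallin, a thyroid hormone binding protein of layer 5 corticospinal neurons, separated the knockouts. Controls held 73.5, 33.3, 38.5 and 34.8 CPM, the BAF155 cKO libraries 39.5, 41.97, 27.3 and 34.7 CPM, and the libraries labelled Pax6 cKO 81.3, 112, 85.6 and 93.0 CPM. Control 1 stood apart from the other 3 controls, and the libraries labelled Pax6 cKO lay above all others. Crym rose by 1.04 on the log2 scale there (SE 0.22, edgeR adjusted p = 0.0030), a 2.06-fold rise. Its BAF155 cKO value was -0.33 (95% interval -0.80 to 0.14, edgeR adjusted p = 0.30), and 0.01 without control 1 (adjusted p = 0.96).

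Of the 10 members, 2 differed between the female and the male controls. The 2 female controls averaged 458 CPM of Tbr1 against 270.3 in the 2 male controls, a log2 difference of 0.76 (SE 0.16, edgeR adjusted p = 0.036). For Sox5 the averages were 375 and 178 CPM, a log2 difference of 1.07 (SE 0.20, edgeR adjusted p = 0.019). These 2 members were called higher in females, as were 0.248% of all tested genes, with 0.666% called in either direction. Zfpm2 (0.70, edgeR adjusted p = 0.10), Fezf2 (0.65, adjusted p = 0.12) and Bcl11b (0.61, adjusted p = 0.15) had smaller differences in the same direction and were not called. Tle4 (0.22), Hs3st4 (0.27), Ldb2 (-0.08), Foxp2 (-0.10) and Crym (-0.55) were not called either. With 2 libraries a sex, sex and any other difference between these pairs of libraries cannot be told apart.

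Each knockout was therefore also set against the 2 controls of its own sex. Against female controls, 8 of the 10 genes fell in the BAF155 cKO, where 25.1% of 17095 tested genes were called and 14.5% were lower. Sox5 had the lowest value at -1.12 (SE 0.17, edgeR adjusted p = 0.00088), from 375 CPM in female controls to 174 in the BAF155 cKO. Hs3st4 (-1.04), Tbr1 (-0.90), Fezf2 (-0.84), Zfpm2 (-0.81), Tle4 (-0.71), Bcl11b (-0.61) and Ldb2 (-0.57) also fell (edgeR adjusted p = 0.00012 to 0.011). None of these 8 overlapped the female controls, where all BAF155 cKO libraries lay below both female controls for 24.5% of tested genes. Foxp2 stood at 0.66 (edgeR adjusted p = 0.051), and Crym at -0.04 (95% interval -0.37 to 0.29, adjusted p = 0.86).

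Against male controls, 3 of the 10 fell in the libraries labelled Pax6 cKO, where 7.98% of 17239 tested genes were called and 4.9% were lower. They were Tbr1 at -0.83 (SE 0.14, edgeR adjusted p = 0.0015), Hs3st4 at -0.46 (SE 0.13, adjusted p = 0.045) and Tle4 at -0.37 (SE 0.10, adjusted p = 0.038). Tbr1 averaged 152 CPM against 270.3 in the male controls. Fezf2 was at -0.04 (95% interval -0.41 to 0.32) and Zfpm2 at -0.11 (-0.49 to 0.26), with averages close to those of the male controls. Sox5 (-0.38), Bcl11b (-0.42), Ldb2 (-0.36), Foxp2 (0.59) and Crym (0.79) were not called (edgeR adjusted p = 0.096 to 0.28). Crym stood at 81.3 to 112 CPM against 33.3 and 73.5 in the male controls. Tbr1, Tle4 and Hs3st4 were thus called lower in both knockouts with either set of controls.

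**Figure D3:**
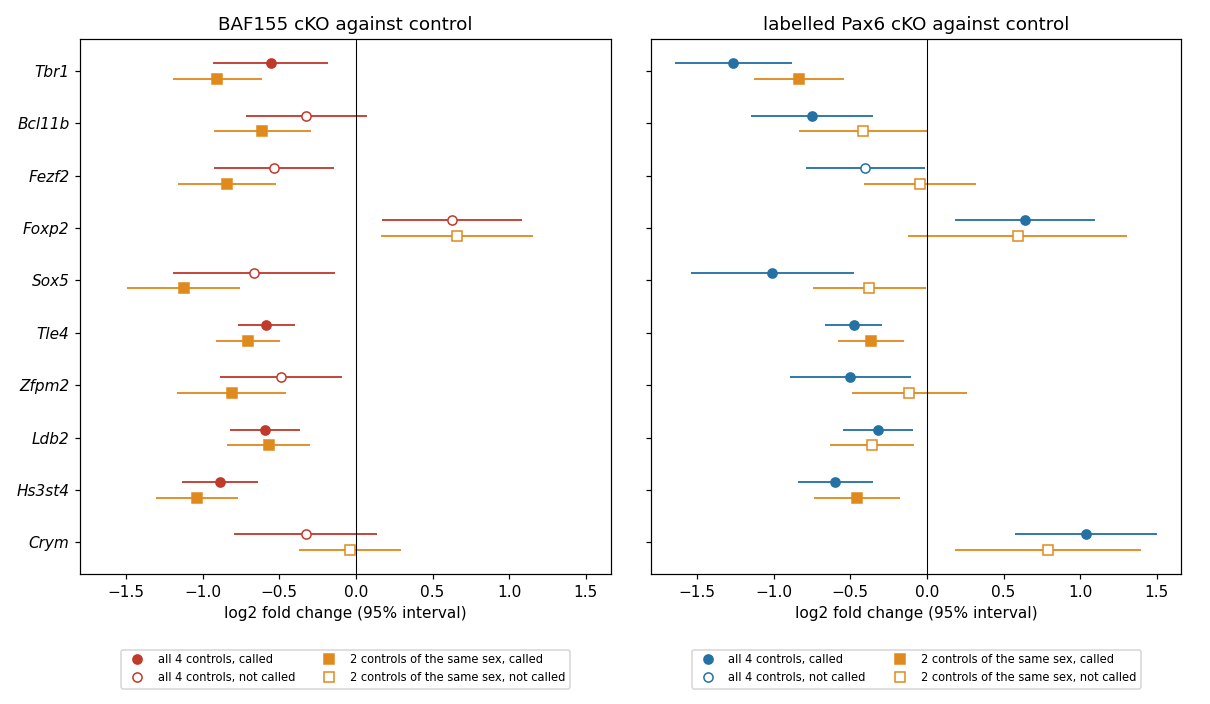
Log2 fold change of each gene (points) with its 95% interval (bars) on the x axis, for the BAF155 cKO (left) and the libraries labelled Pax6 cKO (right), against all 4 controls (circles) or the 2 same-sex controls (orange squares). Filled symbols passed the test: with same-sex controls, 8 genes did in the BAF155 cKO and 3 in the libraries labelled Pax6 cKO.

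Set directly against each other, the knockouts differed in 2 of the 10 genes, where 4.31% of all tested genes were called, 2.3% as higher in the BAF155 cKO and 2.01% as lower. Tbr1 was 1.63-fold higher in the BAF155 cKO (log2 0.71, SE 0.18, edgeR adjusted p = 0.036), at 247 ± 45.9 against 152 ± 1.60 CPM. This call was lost in 7 of the 8 fits that left out 1 library, the exception being without BAF155 cKO library 4 (edgeR adjusted p = 0.0689 to 0.103 in the 7). Crym was lower in the BAF155 cKO by 1.37 on the log2 scale (SE 0.22, edgeR adjusted p = 0.0033), at 35.9 ± 6.44 against 92.9 ± 13.5 CPM, and passed in all 8. The other 8 had log2 differences between -0.29 (Hs3st4) and 0.43 (Bcl11b). Their intervals still allow sizeable differences, for example -0.19 to 0.87 for Sox5 and -0.47 to 0.44 for Foxp2.

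Because this contrast sets female against male libraries, the change in one knockout was also compared with the change in the other, each relative to controls of its sex, with sex as a term chosen after seeing the data. No member was called (0.0787% of all tested genes were). For Tbr1 the difference of changes was -0.06 (95% interval -0.46 to 0.35), where the direct contrast gave 0.71. Fezf2 had a difference of -0.78 (-1.31 to -0.26, edgeR adjusted p = 0.48), Sox5 of -0.73 (-1.24 to -0.22, adjusted p = 0.53) and Crym of -0.82 (-1.61 to -0.02, adjusted p = 0.75). Unadjusted, 6 of the 10 were under 0.05, all with the lower value in the BAF155 cKO, where 6.56% of all tested genes were under 0.05 and 3.32% were with that sign.

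Of 9 other genes of layer 6 and corticothalamic neurons, 6 fell and none rose in the BAF155 cKO, with a median of -0.55. There, 7.56% of all tested genes were called lower and 6.04% higher. Sla, an adaptor of receptor signalling, fell by 0.85 (SE 0.11, edgeR adjusted p = 0.00013) from 242 ± 27.4 to 134 ± 17.1 CPM, and Ppp1r1b, the phosphatase inhibitor DARPP-32, by 0.89 (SE 0.15, adjusted p = 0.0012). Likewise 6 of the 9 fell and none rose in the libraries labelled Pax6 cKO, with a median of -0.45. Under this label 18.9% of all tested genes were called lower and 16.6% higher. Wnt7b, a secreted Wnt ligand, fell by 1.22 there (SE 0.18, edgeR adjusted p = 0.00022), from 173 ± 49.8 to 74.2 ± 7.997 CPM. Ppp1r1b fell by 0.97 (SE 0.15, adjusted p = 0.00029), and is also one of the striatal markers. Against same-sex controls, 7 of the 9 fell in the BAF155 cKO and 3 in the libraries labelled Pax6 cKO. In these comparisons 14.5% and 4.9% of all tested genes were called lower.

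Of 11 other layer 5 genes, 2 rose and none fell in the BAF155 cKO, where 6.04% of all tested genes were called higher and 7.56% lower, with a list median of 0.18. These were Pcp4, a calmodulin-binding peptide, by 0.57 (SE 0.11, edgeR adjusted p = 0.0027) and the cadherin Cdh22 by 0.80 (SE 0.17, adjusted p = 0.0072). With the Pax6 cKO label, 5 rose and 2 fell, with a median of 0.26, where 16.6% of all tested genes were called higher and 18.9% lower. Etv1, an ETS factor of layer 5 neurons, rose by 1.06 (SE 0.12, edgeR adjusted p = 2.9e-05) from 22.1 ± 4.80 to 46.0 ± 1.76 CPM, and Pcp4 by 0.66 (SE 0.11, adjusted p = 0.0004). Cdh13 fell by 0.69 (SE 0.12, edgeR adjusted p = 0.00091) and Crim1 by 0.31 (SE 0.09, adjusted p = 0.012, lost without control 4 at 0.052). Among the members expressed in layer 5, Crym rose under this label, Bcl11b and Ldb2 fell, and Fezf2 was not called. Against male controls none of these members was called. Of the 11 other layer 5 genes, 3 rose and none fell in the BAF155 cKO against same-sex controls. Under the Pax6 cKO label 4 rose and 1 fell. In these comparisons 25.1% and 7.98% of all tested genes were called in either direction.

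**Figure D4:**
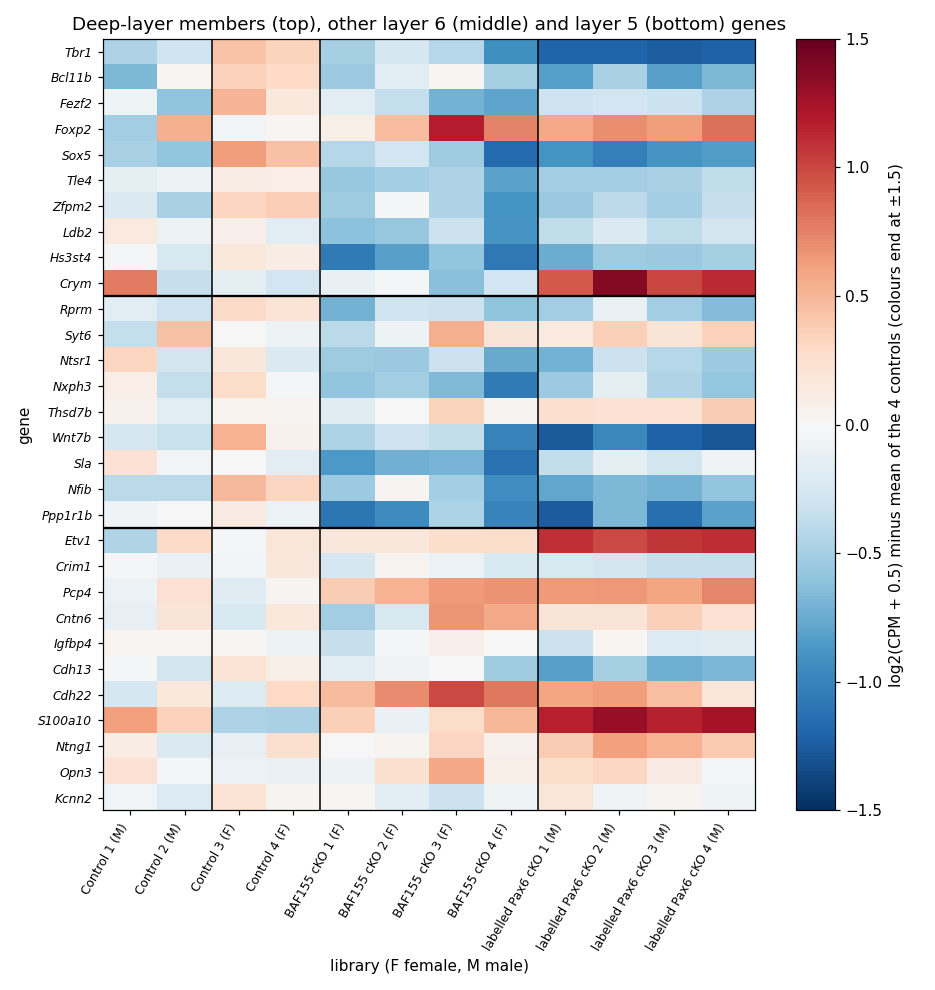
Level of the 10 deep-layer members (top), 9 other layer 6 genes (middle) and 11 other layer 5 genes (bottom) in each library (columns, with sex), coloured by log2(CPM + 0.5) minus the mean of the 4 controls, with colours ending at 1.5 either way. Most layer 6 rows are blue in both knockouts, Tbr1 and Wnt7b deepest in the libraries labelled Pax6 cKO, while Foxp2, Crym, Etv1, Pcp4 and S100a10 are red there. S100a10 was also lower in the female than in the male controls (log2 difference -0.98, edgeR adjusted p = 0.0065), and the libraries labelled Pax6 cKO are male.

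Of 7 tested subplate genes, whose neurons lie beneath layer 6 and share Tbr1, 2 rose and 1 fell in the BAF155 cKO. In the libraries labelled Pax6 cKO 1 rose and 3 fell. Of all tested genes, 6.04% and 16.6% were called higher and 7.56% and 18.9% lower in these 2 comparisons. Lpar1, a lysophosphatidic acid receptor, fell by 2.43 in the BAF155 cKO (SE 0.10, edgeR adjusted p = 8.8e-10) and by 1.14 under the Pax6 cKO label (SE 0.09, adjusted p = 7.4e-07). Nxph4, a neurexin ligand, rose by 0.48 in the BAF155 cKO (edgeR adjusted p = 0.034, lost in 5 of the 8 fits without 1 library at 0.0557 to 0.0878) and fell by 0.93 under the Pax6 cKO label (adjusted p = 0.00031). Between the knockouts, Nxph4 was higher by 1.41 in the BAF155 cKO (edgeR adjusted p = 7.8e-05).

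Among 12 upper-layer and callosal genes, 7 fell in the BAF155 cKO and 9 in the libraries labelled Pax6 cKO. None rose in either, and the medians were -0.43 and -0.72. Of all tested genes, 7.56% and 18.9% were called lower and 6.04% and 16.6% higher, shares that also stand beside the counts below. Unc5d, a netrin receptor of upper-layer neurons, fell by 1.47 (SE 0.09, edgeR adjusted p = 3.3e-08) and 2.02 (SE 0.09, adjusted p = 5.9e-10). Of 17 pan-neuronal genes, 4 fell in the BAF155 cKO, with a median of -0.28, and 8 fell and 1 rose in the libraries labelled Pax6 cKO, with a median of -0.20. Their summed level was 10664 to 11538 CPM in controls, 8336 to 10505 in the BAF155 cKO and 9309 to 10639 under the Pax6 cKO label, below every control in both. Slc17a6, the vesicular glutamate transporter of young excitatory neurons, fell by 0.43 (SE 0.08, edgeR adjusted p = 0.0017) and by 1.23 (SE 0.08, adjusted p = 4.5e-08). The members' sum was 1199 to 1921 CPM in controls, 908 to 1247 in the BAF155 cKO and 972 to 1063 under the Pax6 cKO label. Mitochondrial genes took 2.27, 2.18, 1.21 and 1.38% of the reads of controls 1 to 4, 2.92, 1.57, 2.09 and 3.27% of the BAF155 cKO libraries and 2.04 to 2.91% of the libraries labelled Pax6 cKO. Within each group, the order of the libraries by the sum of the members was the exact reverse of their order by mitochondrial share. The 2 female controls had the highest sums and the lowest shares of the controls. Markers of ventral progenitors and GABAergic neurons moved the other way: 7 of 10 rose in the BAF155 cKO and 8 of 10 in the libraries labelled Pax6 cKO, with sums of 555 to 810 CPM in controls, 1081 to 1263 and 1297 to 1422. Of 7 radial glia markers, 4 fell in the BAF155 cKO, and 5 fell and 1 rose under the Pax6 cKO label, with sums of 2148 to 2278 CPM in controls, 1680 to 1899 and 1939 to 2123. Of 5 erythroid genes, 1 rose in the BAF155 cKO and 2 under the Pax6 cKO label, with sums of 262 to 369 CPM in controls, 327 to 650.1 and 495 to 554. The part of these markers and of the mitochondrial share in the fall of the deep-layer genes was not tested.

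**Figure D5:**
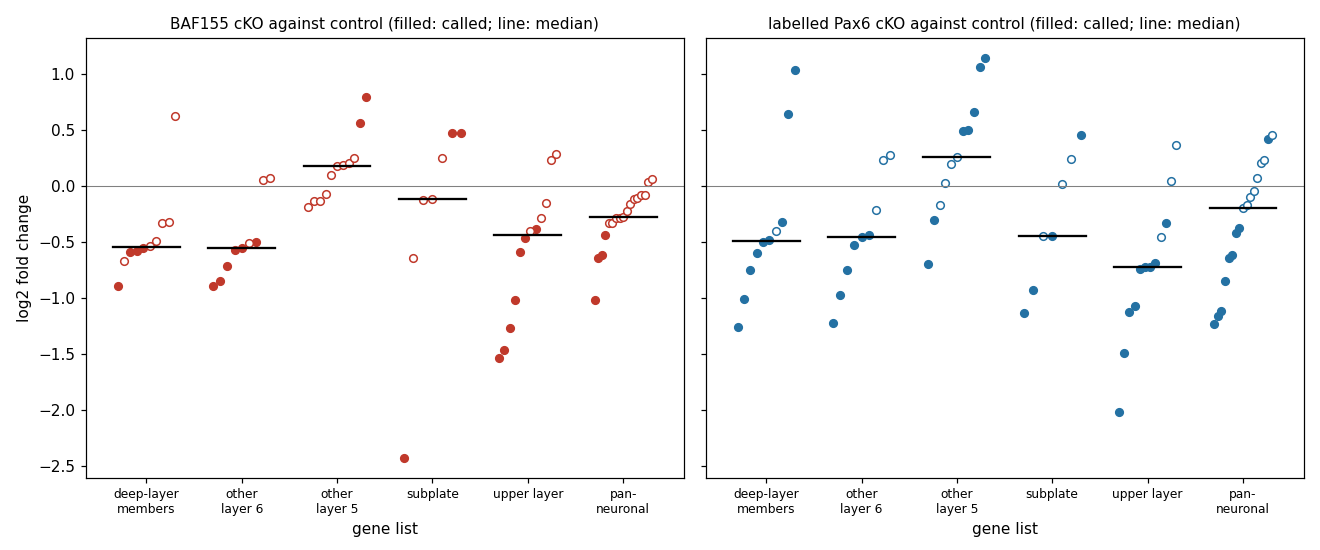
Log2 fold change (y axis) of every tested gene (points) of 6 gene lists (x axis) in the BAF155 cKO (left) and the libraries labelled Pax6 cKO (right) against 4 controls. Filled points passed the test, and the line is the median of the list: -0.55 and -0.49 for the deep-layer members, -0.55 and -0.45 for other layer 6 genes, and 0.18 and 0.26 for other layer 5 genes.

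Close relatives of the members were measured as well. Of 17 tested paralogs, 2 rose and 8 fell in the BAF155 cKO and 1 rose and 10 fell in the libraries labelled Pax6 cKO. Over all tested genes, 6.04% and 16.6% were called higher and 7.56% and 18.9% lower. Eomes, the Tbr1 relative that marks basal progenitors, fell by 1.95 (SE 0.18, edgeR adjusted p = 3.8e-06) and 2.23 (SE 0.18, adjusted p = 6.3e-07). Hs3st1, which like Hs3st4 encodes a heparan sulfate 3-O-sulfotransferase, fell by 0.85 (SE 0.09, edgeR adjusted p = 1.1e-05) and 1.46 (SE 0.09, adjusted p = 2.9e-08). Fezf1, the Fezf2 relative, rose in the BAF155 cKO from 0.276 ± 0.244 to 3.08 ± 1.68 CPM (log2 3.47, SE 0.62, edgeR adjusted p = 0.0022), with overlapping groups, and stood at 0.407 ± 0.231 CPM in the libraries labelled Pax6 cKO. Tle1, a corepressor like Tle4, rose by 0.35 in the BAF155 cKO (SE 0.09, edgeR adjusted p = 0.021), a call lost without control 2 (adjusted p = 0.061).

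Over the 12 libraries, the genes whose centred log2 profile was nearest to that of Tbr1, among 11121 genes of at least 5 CPM, were Kcnq3, a potassium channel subunit (root mean square difference 0.120), Wnt7b (0.133) and Zfp703 (0.138). Their log2 fold changes were -0.40, -0.55 and -0.61 in the BAF155 cKO and -1.19, -1.22 and -1.20 in the libraries labelled Pax6 cKO. For Bcl11b the nearest were Fam98b (0.142), Sox6 (0.144) and Dach1 (0.147). The 12 libraries share their depth and scaling, so this likeness is a description.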

How the data were processed

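The deposited files hold raw read counts per Ensembl gene for 12 libraries of E15.5 cortex, prepared with an Illumina TruSeq RNA v2 kit per the labels' protocols. Per the submitters' processing notes, the genome build is mm10. Aligner and counter were not given in the sources used here, nor whether counting used strand. Of 48709 identifiers, 48349 matched GENCODE M21, and the other 360 held at most 0.0397% of a library's reads. Counts, as the authors deposited them (15155249 to 32047949 reads per library), were scaled by the trimmed mean of M-values (CPM), filtered with filterByExpr and tested with edgeR 4.0.16 (quasi-likelihood, robust) in R 4.3.3 over all 12 libraries. p-values were adjusted over all 16511 tested genes by the Benjamini-Hochberg method at 0.05. RPKM divides CPM by the length of the union of exons. The named list genes are the 2 of smallest adjusted p in each direction per list and comparison. Where a count of 1 list is given, Kcnt2, Tmem163, Neurod1, Stmn2, Tle2 and Pou3f2 also met this rule. S100a10 and Penk are named beside them, Penk after its values were seen. The likeness to Tbr1 and Bcl11b uses log2(CPM + 0.5). The members and lists were chosen with earlier results of these data known. Alternatives were other scalings and filters, DESeq2 1.42.0, limma-voom 3.58.1, a GC content and length correction, a replicate block, the 2 groups compared alone, subsets of libraries and leaving out each library. Procedures were tested on simulated data. Every column of values was used.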

Additional observations from a re-analysis of the deposited data

Results flagged for a closer look

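Crym in control 1, at 73.5 CPM, stood apart from the other 3 controls, with a gap to the nearest of 0.871 of the group's range. Of 30 groups of 4 libraries checked, 1 met this limit, and chance gives about 1 in 20.

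The knockouts differed from each other in Tbr1, by 0.71 on the log2 scale (higher in 4 of 4 BAF155 cKO libraries), and in Crym, by -1.37 (lower in 4 of 4).

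Female and male controls differed in Tbr1, by 0.76 on the log2 scale, and in Sox5, by 1.07, with both female controls above both male controls for each.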

How the results depend on the processing

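Against all 4 controls, the number of members called was 4 in the BAF155 cKO and 9 in the libraries labelled Pax6 cKO. In the BAF155 cKO it became 8 with same-sex controls, 8 with sex as a term and 7 without the 2 libraries of over 300 CPM of striatal markers, and leaving out 1 library gave 3 to 8, the 8 without control 2. In the libraries labelled Pax6 cKO it became 3 with same-sex controls and 3 with sex as a term, and leaving out 1 library gave 6 to 10. Between the knockouts it was 2, and 1 with no filter on low counts, with the replicate block, with BAF155 cKO libraries of lane 3 only, with BAF155 cKO libraries 1 and 4 only, and without the libraries of high striatal markers; it was 0 with sex as a term, and 1 to 2 when 1 library was left out. In each case the cause was not tested. Within the BAF155 cKO, the chi-square per gene between 2 libraries was 14.5 for libraries 1 and 4. It was 10.7 for libraries 2 and 3, and 20.8 to 50.2 for the other pairs. This value is larger for less alike libraries and also grows with depth.

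All genes called in the BAF155 cKO numbered 2246, but 1035 with only the 2 groups compared, 4294 with same-sex controls, 4534 with sex as a term, 682 with lane 1 only, 5534 with libraries 1 and 4 only, 653 with libraries 2 and 3 only, and 1001 to 4073 when 1 library was left out. In the libraries labelled Pax6 cKO the number was 5866, but 1375 with same-sex controls, 1772 with sex as a term, and 3825 to 6601 when 1 library was left out. Between the knockouts it was 711, but 1339 with DESeq2, 470 with lane 1 only, 209 with lane 3 only, 13 with sex as a term, and 307 to 786 when 1 library was left out.

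Except for Crym in the BAF155 cKO, the values that changed sign were differences between the knockouts. Zfpm2 was 0.01, and became -0.00315 with limma-voom, -0.00517 with no filter, -0.0614 with the GC content and length correction, -0.205 with lane 3 only, -0.248 with libraries 1 and 4 only, -0.683 with sex as a term, and -0.169 to 0.132 when 1 library was left out. Foxp2 was -0.02, and became 0.303 with lane 3 only, 0.19 with libraries 2 and 3 only, 0.079 with sex as a term, and -0.222 to 0.137 when 1 library was left out. Fezf2 became 0.099 with lane 1 only and Tle4 0.00449 with libraries 2 and 3 only. With sex as a term Tbr1 went from 0.71 to -0.0551, Bcl11b from 0.43 to -0.18, Sox5 from 0.34 to -0.732 and S100a10 from -0.96 to 0.0167. Against controls, Crym in the BAF155 cKO ran from -0.454 to 0.0108 when 1 library was left out, the highest without control 1.

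Of 12 same-numbered pairs of libraries, 4 had deviations correlated above 0.1 (range -0.300 to 0.459), and pairs of different number ranged from -0.458 to 0.415. With 4 libraries a group, these correlations cannot show whether the replicate numbers pair the libraries. With the replicate block the Tbr1 call was lost in the BAF155 cKO (-0.54, edgeR adjusted p = 0.067) and between the knockouts (0.70, adjusted p = 0.056), the Zfpm2 call in the libraries labelled Pax6 cKO (-0.49, adjusted p = 0.0697), and Foxp2 passed in the BAF155 cKO (0.62, adjusted p = 0.037). It also ended the Nxph4 call in the BAF155 cKO (0.47, adjusted p = 0.0533). Counts per member and library ran from 385 reads (Zfpm2) to 9755 (Tbr1).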
